A study of Capsella grandiflora x Capsella rubella and Capsella rubella and Capsella grandiflora with 8 samples.

Results

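Seeds of Capsella rubella pollinated by C. grandiflora (Cr × Cg, female parent named first) were compared with seeds of C. rubella pollinated by its own species (Cr). The mother species was the same in both crosses and the father changed. The comparison used 4 of the 8 seed RNA-sequencing libraries of the series, 2 of each cross, which were chosen by the cross in their labels. The other 4 libraries were 2 of C. grandiflora seeds (Cg) and 2 of the reciprocal hybrid (Cg × Cr), which entered the same fit, place the levels of Cr × Cg and serve in the test of the difference between responses. Each library held whole seeds, 300 to 500 of them, harvested at 6 days after pollination (DAP) from emasculated and hand-pollinated flowers. Each species was represented by 1 accession, so a difference between father species cannot be told apart from a difference between the accessions used.

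A seed of flowering plants holds an embryo and an endosperm, both products of fertilization, within a seed coat that is maternal tissue and was of C. rubella genotype in both crosses. The endosperm of Brassicaceae first divides its nuclei without forming walls and later cellularizes, when microtubule arrays called phragmoplasts guide new walls between the nuclei. In Arabidopsis, an excess of paternal genomes delays or prevents this step, and pollen of the osd1 mutant, which is often unreduced, is used to produce such an excess.

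The 8 libraries held between 24838286 and 34290034 counts, of which 21214 genes that passed a low-count filter took nearly all. Levels are given as CPM, the counts of a gene for each 1000000 counts of the scaled library, and differences as log2 fold changes ± SE from an edgeR quasi-likelihood fit of all libraries. Genes with an adjusted p below 0.05 are referred to as called. The 2 replicates of each cross differed by more than sampling noise, with correlations of log2 CPM between 0.96 and 0.969. Some libraries stood apart in the transcripts of late seed development. The summed level of 11 seed storage and oil body genes was 12737 and 819 CPM in Cr, 1118 and 36.8 CPM in Cr × Cg, 345 and 172 CPM in Cg and 4538 and 2127 CPM in Cg × Cr. Replicate 1 was above replicate 2 in every cross, and Cr replicate 1 was far above all other libraries. A group of 4 pollen-expressed pectin genes (VGD1, PGA4 and the homologues of AT1G14420 and AT5G07430), chosen after their values had been seen, summed to 68.3 and 14.6 CPM in Cr × Cg against 6.9 and 7.8 CPM in Cr, and Cr × Cg replicate 1 was the highest of the 8 libraries. The part of these differences in the results below was not tested, and the main counts are also given without single libraries.

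Many genes differed between seeds of the same mother species with different fathers. In Cr × Cg seeds, 2630 genes were higher than in Cr seeds, which is 12.4% of the genes tested, and 2192 were lower, which is 10.3%. The genes that rose were mostly weakly expressed in Cr, with a median level of 2.72 CPM, and had a median of 19.4 CPM in Cr × Cg. The genes that fell were mostly well expressed in Cr, with a median of 39.6 CPM against 13.1 CPM in Cr × Cg. Over all tested genes these medians were 17.6 and 17.4 CPM.

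The median log2 fold change was 2.48 among the genes that rose and -1.55 among those that fell, beside 0.03 over all genes. A log2 fold change of 3 or more in size was reached by 43.7% of the former and 15.7% of the latter. Since these genes were selected by the same contrast, the medians describe them and are no test. Genes that rose took 6.79 and 6.1% of all counts in the Cr libraries and 19.6 and 20.9% in Cr × Cg, beside 13.5 and 15.1% in Cg and 11.1 and 11.2% in Cg × Cr. Genes that fell took 14.4 and 17.1% in Cr and 5.62 and 5.04% in Cr × Cg, beside 11.7 and 10.2% in Cg and 12 and 13.6% in Cg × Cr. In whole seeds, fewer cells of a type and less RNA per cell cannot be told apart.

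The number of calls depended on single libraries. Without Cr replicate 1, 1405 genes were higher and 1471 lower. Leaving out Cr replicate 2 gave counts of 987 and 1068. Leaving out Cr × Cg replicate 1 gave 1831 and 1514, and leaving out Cr × Cg replicate 2 gave 1319 and 1023. A call that held in the full fit and with each of these 4 libraries left out is named stable here. Stable calls numbered 813 higher genes (3.83%) and 853 lower genes (4.02%). The files pair no gene with a name, so names were taken from the closest Arabidopsis homologues given by the study for 3669 genes, of which 3316 were tested.

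**Figure D1:**
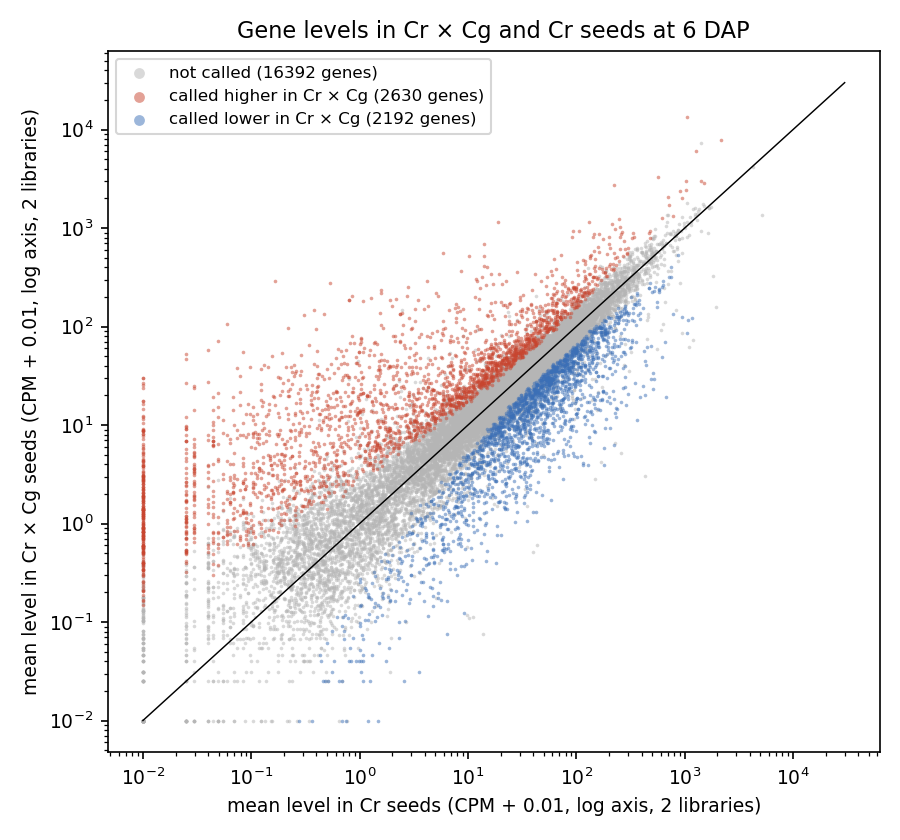
Mean level of each tested gene in Cr seeds (x axis) and Cr × Cg seeds (y axis), each a mean of 2 libraries in CPM plus 0.01 on log axes, with the line of equal levels. The 2630 genes called higher reach far to the left, where Cr has few or no counts, and the 2192 genes called lower lie mostly at well expressed levels.

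Genes of the cell division machinery were mostly lower in Cr × Cg seeds. All 14 kinesins tested and all 8 tubulin, MAP65 and cytokinesis genes fell, with median log2 fold changes of -2.35 and -2.28, and 18 of 22 cyclin and mitotic kinase genes fell, with a median of -1.76. None of the 44 was called higher. Over all tested genes, 12.4% were called higher and 10.3% lower. The lists hold only homologues of genes that were deregulated in Arabidopsis crosses with osd1, and every kinesin and cytokinesis gene and 21 of the 22 cyclin and kinase genes came from the genes lowered in WT × osd1 seeds. The shares are therefore to be read beside that set, of which 47.1% fell. With each of the 4 libraries left out, 13 or 14 kinesins, 7 or 8 cytokinesis genes and between 13 and 17 cyclin and kinase genes were lower.

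KNOLLE, the cytokinesis-specific syntaxin that fuses vesicles at the cell plate, had the largest fall of the 3 lists. Its level was 385 and 443 CPM in Cr and 36.4 and 13.8 CPM in Cr × Cg, a log2 fold change of -4.04 ± 0.46 (adjusted p = 0.0015). The Cr × Cg libraries were also far below Cg (356 and 337 CPM) and Cg × Cr (215 and 312 CPM). HINKEL, a kinesin that activates the phragmoplast kinase cascade, was at 79.7 and 100 CPM in Cr and 11.5 and 8.22 CPM in Cr × Cg, a log2 fold change of -3.19 ± 0.24 (adjusted p = 0.00069). TETRASPORE, the related kinesin of male meiotic cytokinesis, was at 33.9 and 36.1 CPM in Cr and 5.88 and 2.07 CPM in Cr × Cg (log2 fold change -3.12 ± 0.43). RUNKEL, a microtubule-binding kinase-like protein of cytokinesis, was at 49.8 and 65.5 CPM in Cr and 16.5 and 14.3 CPM in Cr × Cg (-1.90 ± 0.24 on the log2 scale). In all 4 genes the 2 libraries of Cr × Cg lay below the other 6. The share of all tested genes with such an order was not counted, here or for the genes below.

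The kinesins of the phragmoplast midzone moved alike. PAKRP1L went from 70.8 and 82.7 CPM in Cr to 11.3 and 9.82 CPM in Cr × Cg (log2 fold change -2.86 ± 0.22), and PAKRP2, a vesicle-carrying kinesin, from 86.9 and 112 CPM to 16.9 and 8.73 CPM (-2.95 ± 0.33). The division plane genes POK2 and POK1 had log2 fold changes of -2.45 ± 0.25 and -1.25 ± 0.22, and TANGLED, their partner at the cortical division site, one of -2.93 ± 0.27. The spindle kinesin RSW7 had a log2 fold change of -1.90 ± 0.25. The smallest falls among kinesins were those of POK1 and of the minus-end motor ATK3 (-1.20 ± 0.33), and the call of ATK3 was lost with a library left out (largest adjusted p = 0.11). The kinesin with the highest mean level over Cr and Cr × Cg, the homologue of AT3G44050, was at 92.9 and 112 CPM in Cr and 38.8 and 25.9 CPM in Cr × Cg (-1.66 ± 0.23).

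Microtubule-associated proteins followed. MAP65-2, a microtubule bundling protein, was at 200 and 256 CPM in Cr and 40 and 31 CPM in Cr × Cg, a log2 fold change of -2.68 ± 0.23 (adjusted p = 0.0008). MAP65-4 was at 75 and 103 CPM in Cr and 15.8 and 16.5 CPM in Cr × Cg (-2.46 ± 0.24), and PLEIADE, the MAP65 that bundles phragmoplast microtubules, had a log2 fold change of -2.09 ± 0.29. The beta-tubulin gene TUB8 fell less, from 128 and 157 CPM to 61.4 and 48.6 CPM (-1.37 ± 0.20). The spindle assembly factor TPX2 fell least, by 1.07 on the log2 scale, and its call was lost with a library left out (largest adjusted p = 0.084).

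Most cyclin and mitotic kinase genes fell. Cyclins of the B type, which act at mitosis, accounted for 9 of the 18 falls, and CDKB2;1, a kinase of the same phase, had a log2 fold change of -2.26 ± 0.30. The level of CYCB1;3 was 25.9 and 40.6 CPM in Cr and 7.64 and 6.11 CPM in Cr × Cg (-2.27 ± 0.31). AUR2, an Aurora kinase, was at 48 and 55.3 CPM in Cr and 10.1 and 11 CPM in Cr × Cg (-2.29 ± 0.27), while AUR1 had a smaller fall of 1.04 on the log2 scale that lost its call with a library left out (largest adjusted p = 0.06). MYB3R4, an activator of genes of the G2 to M transition, was at 85.5 and 117 CPM in Cr and 18.7 and 18.9 CPM in Cr × Cg (-2.43 ± 0.32). The D-type cyclins, which act at entry to the cycle, gave both the largest fall of the list and 3 of the 4 genes that were not called. CYCD3;3 was at 131 and 181 CPM in Cr and 25.8 and 14 CPM in Cr × Cg (-2.97 ± 0.32, adjusted p = 0.0012), whereas CYCD4;2 (0.48 ± 0.47), CYCD6;1 (0.24 ± 0.39) and CYCD1;1 (-0.75 ± 0.50) were not called. SDS, a meiotic cyclin at under 2 CPM in every library, was the other (-1.28 ± 0.53).

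**Figure D2:**
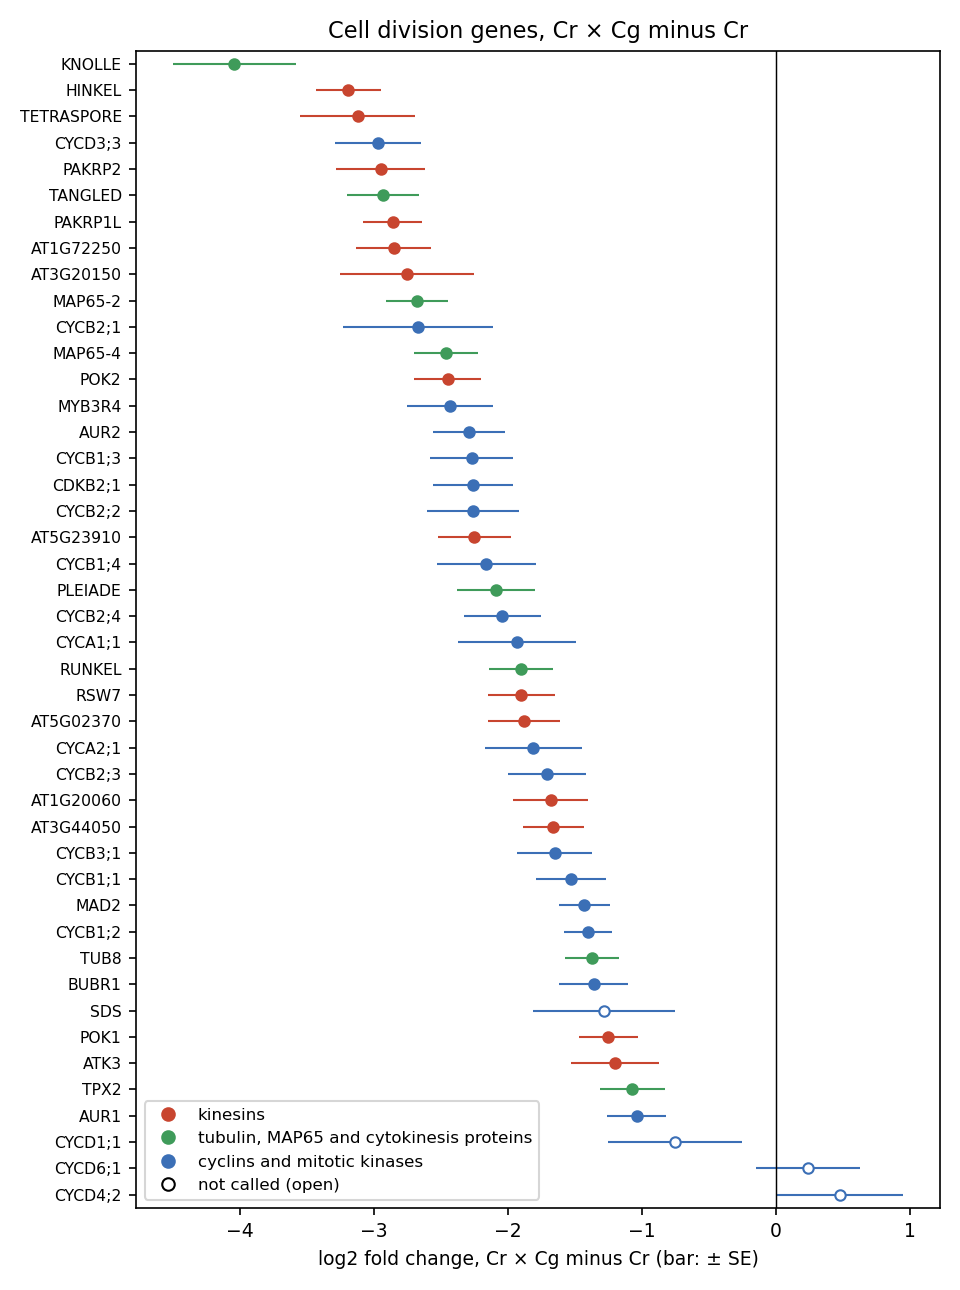
Log2 fold change of Cr × Cg minus Cr seeds, with its SE, for 14 kinesins, 8 tubulin, MAP65 and cytokinesis genes and 22 cyclin and mitotic kinase genes. Filled points passed the test and open points did not, and 42 of the 44 points lie below 0, with KNOLLE the lowest at -4.04.

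The summed level of these groups shows how far the Cr × Cg libraries stood from the rest. The 14 kinesins summed to 868 and 1096 CPM in Cr, 914 and 867 CPM in Cg, 782 and 887 CPM in Cg × Cr and 223 CPM in each Cr × Cg library. The cyclins and mitotic kinases summed to 872 and 1094 CPM in Cr and 285 and 225 CPM in Cr × Cg, with 920 and 831 CPM in Cg and 728 and 814 CPM in Cg × Cr. Neither sum overlapped between Cr × Cg and any other cross.

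Regulators of the endosperm moved in both directions, and all 5 tested members of this list were called in the full fit and with each library left out, 3 higher and 2 lower. The list is small and its members were again homologues of osd1-deregulated genes, 3 of them raised and 2 lowered in WT × osd1 seeds. Over all tested genes, 3.83% were stable calls higher and 4.02% stable calls lower. MINI3, a WRKY factor that promotes endosperm growth in Arabidopsis, was at 0.919 and 2.07 CPM in Cr and 41.8 and 47.9 CPM in Cr × Cg, a log2 fold change of 4.92 ± 0.59 (adjusted p = 0.0016). Its Cg level was 5.99 and 6.69 CPM. FWA, an imprinted homeodomain gene, was at 3.47 and 3.78 CPM in Cr and 22.7 and 53.8 CPM in Cr × Cg (3.40 ± 0.48), and SUVH7, a paternally expressed gene of the histone methyltransferase family in Arabidopsis, at 4.74 and 8.66 CPM and 36.6 and 68.2 CPM (2.97 ± 0.45). In these 3 genes the Cr × Cg libraries were the highest of the 8.

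The members that fell were ZOU (ZHOUPI) and ICE1, whose proteins pair to drive endosperm breakdown around the growing embryo in Arabidopsis. ZOU was at 47.3 and 61.7 CPM in Cr and 6.36 and 6.79 CPM in Cr × Cg, a log2 fold change of -3.05 ± 0.43 (adjusted p = 0.0029). ICE1 was at 357 and 492 CPM in Cr and 70.4 and 41.9 CPM in Cr × Cg (-2.92 ± 0.34, adjusted p = 0.0015). For both partners the Cr × Cg libraries were the lowest of the 8.

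Hormone genes moved in both directions. This and the following lists were also limited to osd1-deregulated genes, and their counts are to be read beside the 12.4% higher and 10.3% lower of all tested genes and beside the WT × osd1 sets, of which 56.1% of the raised homologues rose and 47.1% of the lowered ones fell. In the auxin list, with 7 members from the raised and 4 from the lowered set, 4 of 11 genes rose and 3 fell, and without Cr replicate 2 or Cr × Cg replicate 2 only 1 remained higher, without the other libraries 2. TAR1, an aminotransferase of auxin synthesis, was at 2.7 and 3.71 CPM in Cr and 33.7 and 68.3 CPM in Cr × Cg (4.00 ± 0.56, adjusted p = 0.003). YUC10, an endosperm-expressed flavin monooxygenase of the next step, was at 23.8 and 37.9 CPM in Cr and 79.4 and 185 CPM in Cr × Cg (2.1 ± 0.52), and its call was lost with a library left out (largest adjusted p = 0.13). The other rises were those of the transporter gene PIN3 (1.68 ± 0.50) and of the auxin response factor gene ARF21, which had no count in Cr and 26 and 14 counts in Cr × Cg and reached the low-count filter through Cr × Cg alone. Both calls were lost with a library left out (largest adjusted p = 0.2 for PIN3 and 0.094 for ARF21). The falls were those of 3 other auxin response factors. None of the 3 was called between Cr × Cg and Cg (adjusted p = 0.15 for ARF18, 0.25 for ARF4 and 0.46 for ARF11). In Cg, ARF18 was at 7.92 and 8.43 CPM, ARF4 at 11.5 and 7.66 CPM and ARF11 at 67.6 and 48.3 CPM. ARF18 went from 21.1 and 26.2 CPM to 6.12 and 2.49 CPM (-2.45 ± 0.40), ARF4 from 31.4 and 24.1 CPM to 7.91 and 4.17 CPM (-2.19 ± 0.36) and ARF11 from 109 and 150 CPM to 47.8 and 46.9 CPM (-1.45 ± 0.24).

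Of 13 genes of gibberellin, abscisic acid and cytokinin metabolism, 8 of them from the raised and 4 from the lowered WT × osd1 set, 7 rose (53.8%) and 1 fell, and with single libraries left out between 2 and 5 remained higher. The cytokinin synthesis genes went opposite ways. IPT4 and IPT8, isopentenyltransferases known from the Arabidopsis endosperm, had no count in Cr, so their ratio is bounded by the 3 counts over the group that an absence of counts allows. IPT4 had 194 and 271 counts in Cr × Cg, which is at least 161-fold higher, and IPT8 had 86 and 211, at least 103-fold higher. Both reached the low-count filter through Cr × Cg alone, so that they could only be tested because they were high there. IPT6 of the same family was at 65.3 and 73.5 CPM in Cr and 4.8 and 2.61 CPM in Cr × Cg (-4.21 ± 0.42, adjusted p = 0.0011), below all 6 other libraries. The cytokinin oxidases CKX2 (1.24 ± 0.32) and CKX5 (1.09 ± 0.23) were called higher, with CKX5 at 44 and 33.3 CPM in Cr and 86 and 78.8 CPM in Cr × Cg, and both calls were lost with a library left out (largest adjusted p = 0.14 and 0.094). GA2OX3, which inactivates gibberellins, was at 0.385 and 0.429 CPM in Cr and 11 and 26.7 CPM in Cr × Cg (5.52 ± 1.04, largest adjusted p with a library left out 0.076). GA20OX5 was called higher with 18 and 29 counts in Cr × Cg and none in any other library. Like IPT4 and IPT8, it could only be tested because it was high there. The share of 53.8% therefore includes rises that the filter favoured.

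**Figure D3:**
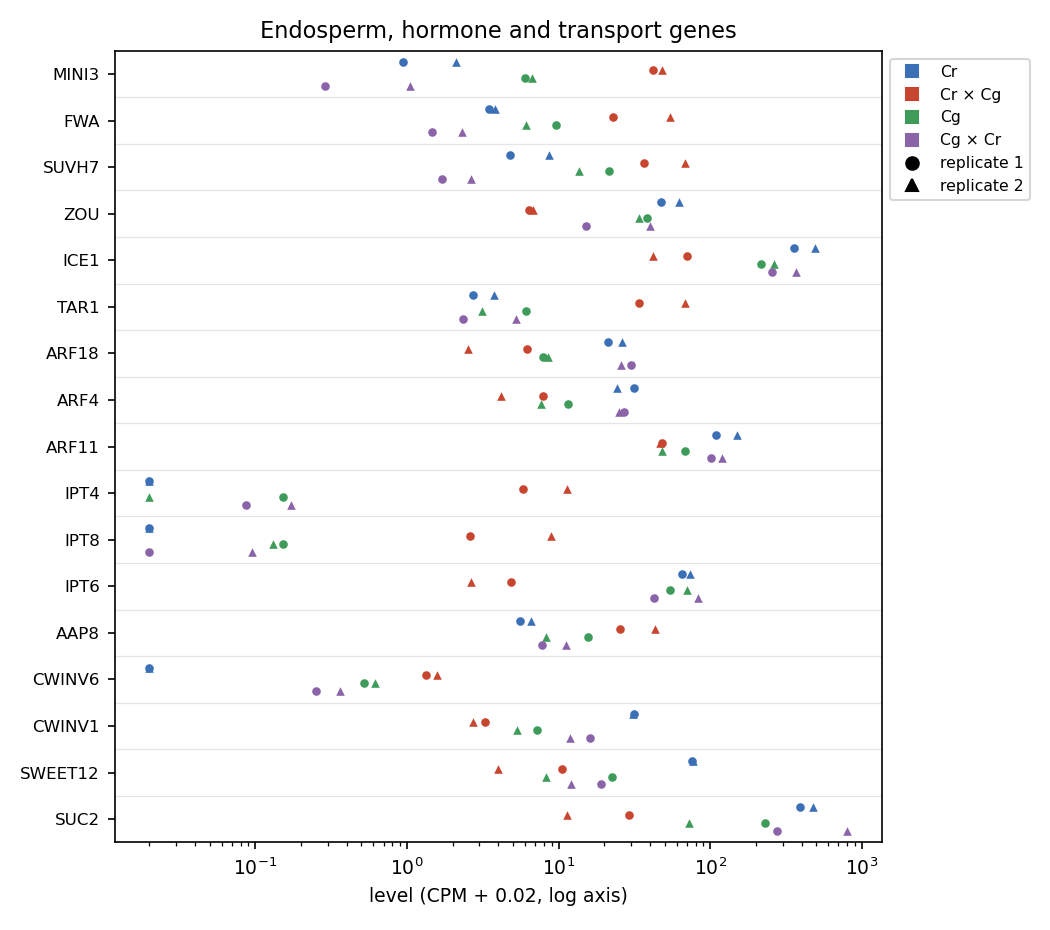
Level of 17 endosperm, hormone and transport genes in each of the 8 libraries, in CPM plus 0.02 on a log axis, with colours for crosses, circles for replicate 1 and triangles for replicate 2. For MINI3, FWA, SUVH7, TAR1, IPT4, IPT8, AAP8 and CWINV6 the Cr × Cg points lie to the right of all others. For ZOU, ICE1, ARF18, ARF11, IPT6, CWINV1 and SUC2 they lie to the left of all others, for ARF11 only narrowly.

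Sugar and amino acid transport was divided as well, with 4 of 11 genes higher and 4 lower (36.4% each). Of the 11, 5 came from the raised and 4 from the lowered WT × osd1 set. With single libraries left out 4 remained higher and 3 or 4 lower. The sucrose exporter SWEET12, of the vascular and seed coat tissues in Arabidopsis, was at 75.5 and 77.3 CPM in Cr and 10.5 and 3.96 CPM in Cr × Cg (-3.39 ± 0.61, adjusted p = 0.0089). SWEET15, which exports sucrose from seed coat and endosperm, went from 213 and 262 CPM to 73.9 and 52.8 CPM (-1.91 ± 0.32). Cg was at 22.5 and 8.17 CPM for SWEET12 and at 78.2 and 58 CPM for SWEET15. Neither was called between Cr × Cg and Cg (adjusted p = 0.26 and 0.86). The phloem loader SUC2 had levels of 388 and 474 CPM in Cr and 29 and 11.4 CPM in Cr × Cg (-4.41 ± 0.82, adjusted p = 0.011), and its call was lost without Cr replicate 2 (adjusted p = 0.054) or Cr × Cg replicate 2 (adjusted p = 0.066). The sugar transporter SWEET7 rose from 65.7 and 63.9 CPM to 273 and 279 CPM (2.09 ± 0.22), and AAP8, an amino acid permease that feeds developing seeds, from 5.51 and 6.51 CPM to 25.2 and 43.3 CPM (2.51 ± 0.40).

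Genes of the cell wall invertase family went opposite ways. CWINV1 was at 31.2 and 31 CPM in Cr and 3.25 and 2.7 CPM in Cr × Cg (-3.38 ± 0.29, adjusted p = 0.00083). CWINV4 was at 31.2 and 30.6 CPM in Cr and 58.9 and 68.6 CPM in Cr × Cg (1.04 ± 0.18), and CWINV6, without a count in Cr, had 44 and 37 counts in Cr × Cg, at least 28-fold more.

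Cell wall loosening and pectin genes also moved in both directions. Of 14 pectin-modifying enzymes 5 rose (35.7%) and 1 fell, and of 17 expansins and xyloglucan endotransglucosylases 5 rose (29.4%) and 2 fell (11.8%). The WT × osd1 sets gave 6 raised and 6 lowered members of the former list and 6 raised and 7 lowered members of the latter. Without either Cr library only 1 of the latter remained higher and 1 lower, and without Cr replicate 2 the pectin list had 4 higher and 2 lower. The homologue of AT3G24130 (Carubv10021607m.g), a pectinesterase, was at 0.741 and 1.21 CPM in Cr and 33.9 and 48.1 CPM in Cr × Cg, a log2 fold change of 5.40 ± 0.51 (adjusted p = 0.001). The pectinesterase homologues AT5G26810 and AT4G02300 had log2 fold changes of 4.08 ± 0.45 and 3.55 ± 0.52. Between Cr × Cg and Cg neither was called (-0.06 ± 0.39 and 1.62 ± 0.47, adjusted p = 0.94 and 0.056). The homologue of AT4G33220, the most abundant of the list, was at 107 and 73.7 CPM in Cr and 276 and 292 CPM in Cr × Cg (1.65 ± 0.23). PME3 (2.01 ± 0.44) was the fifth that rose. The fall was that of the polygalacturonase homologue AT2G43870, from 7.53 and 11.7 CPM to 0.328 and 0.422 CPM (-4.67 ± 0.55). The pollen genes that moved with Cr × Cg replicate 1 are pectin enzymes too, but none of them is in this list.

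Expansins, which loosen walls, gave the most abundant rise of their list. EXPA25 was at 3.82 and 6.2 CPM in Cr and 201 and 234 CPM in Cr × Cg (5.44 ± 1.16, adjusted p = 0.02), and its call was lost with any of the 4 libraries left out (largest adjusted p = 0.12). EXPA9 was at 3.62 and 3.04 CPM in Cr and 20.4 and 16.1 CPM in Cr × Cg (2.45 ± 0.22, adjusted p = 0.00089), a stable call. In Cg and Cg × Cr, EXPA9 was far higher still, between 113 and 159 CPM, so its level in Cr × Cg lay between those of the parents. The other rises were those of EXPA1 (1.00 ± 0.28), XTH1 (8.45 ± 1.49) and EXPB4, which had no count in Cr, and all 3 calls were lost with a library left out. The falls were those of EXPB1 (-3.14 ± 0.70) and EXPA4 (-2.03 ± 0.45), and both calls were lost with a library left out (largest adjusted p = 0.058 and 0.092). GSL1, a callose synthase at 163 and 184 CPM in Cr and 129 and 122 CPM in Cr × Cg, was not called (-0.46 ± 0.18, adjusted p = 0.11).

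Storage protein and oil body genes differed widely between the replicates of a cross. Of 23 tested genes for embryo regulators, storage, oil body and LEA proteins, 1 was called higher (ECP31, a LEA protein gene at 2.32 CPM or less in every library) and 1 lower, while the median log2 fold change was -2.75. The cruciferin gene CRU3, a main storage globulin, was at 3876 and 41.2 CPM in Cr and 315 and 0.126 CPM in Cr × Cg (-3.64 ± 2.94, adjusted p = 0.43), beside 11.8 and 4.18 CPM in Cg. The ranges of the crosses overlapped. Without Cr replicate 1 the log2 fold change of CRU3 was 1.91. The oleosin gene OLEO1, of the oil body coat, was at 1006 and 267 CPM in Cr and 202 and 12.5 CPM in Cr × Cg (-2.57 ± 1.22, adjusted p = 0.19). Leaving out 1 library changed the count of members called lower to 2 (Cr replicate 1), 3 (Cr replicate 2) or 7 (Cr × Cg replicate 1). The call of ECP31 was lost when either Cr library or the Cr × Cg library of replicate 2 was left out.

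Regulators of embryo maturation were measured in the same list. LEC1, a nuclear factor Y subunit expressed in embryo and endosperm, was at 147 and 148 CPM in Cr and 10.6 and 25.6 CPM in Cr × Cg (-3.03 ± 0.54, adjusted p = 0.0079), and was the call of the list that fell. FUS3 was at 83 and 113 CPM in Cr and 26.7 and 6.62 CPM in Cr × Cg (-2.55 ± 0.75, adjusted p = 0.054), and LEC2 at 53.1 and 88.8 CPM and 30.5 and 39.6 CPM (-1.02 ± 0.31, adjusted p = 0.051). FUS3 and LEC2 were not called. The sum of the 3 genes was 283 and 349 CPM in Cr and 67.9 and 71.8 CPM in Cr × Cg.

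**Figure D4:**
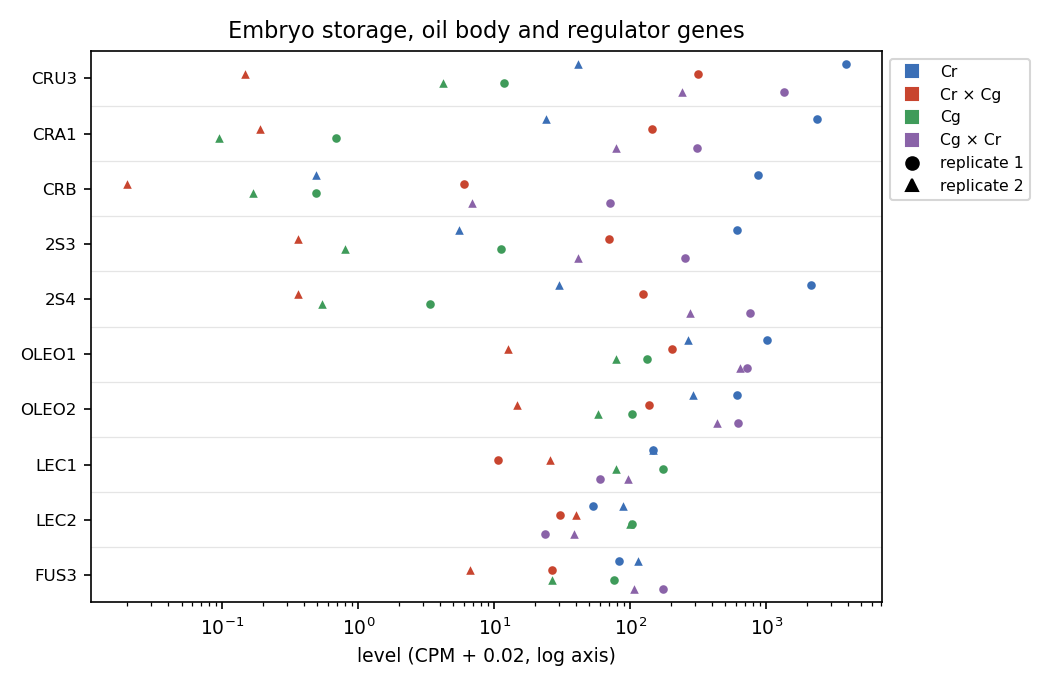
Level of storage protein genes (CRU3, CRA1, CRB, 2S3, 2S4), oleosin genes and embryo regulators in each of the 8 libraries, in CPM plus 0.02 on a log axis, with colours for crosses, circles for replicate 1 and triangles for replicate 2. For CRU3 the libraries of Cr stand at 3876 and 41.2 CPM and those of Cr × Cg at 315 and 0.126 CPM, and LEC1 stands at 147 and 148 CPM in Cr and 10.6 and 25.6 CPM in Cr × Cg.

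The few genes of maternal and green tissue that could be tested did not move together. The seed coat list held 2 tested genes. TT12, a transporter of proanthocyanidin precursors in the seed coat, rose from 26.6 and 22.8 CPM in Cr to 149 and 200 CPM in Cr × Cg (2.82 ± 0.29, adjusted p = 0.0011), and was at 76.9 and 127 CPM in Cg. MUM4, which makes rhamnose for seed coat mucilage, was at 436 and 485 CPM in Cr and 101 and 166 CPM in Cr × Cg, beside 160 and 103 CPM in Cg. It was not called (-1.79 ± 0.64, adjusted p = 0.089). The 3 photosystem and Rubisco genes were not called, and RBCS1B, a Rubisco small subunit, was at 2033 and 1340 CPM in Cr and 1744 and 1492 CPM in Cr × Cg (-0.06 ± 0.33, adjusted p = 0.92). A further gene of this kind, listed by the study only from these hybrid seeds, was called lower.

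The homologues of genes deregulated in Arabidopsis interploidy seeds were counted in the same way. These sets were chosen on Arabidopsis seeds, and their members were paired with C. rubella genes by the study. Of 830 tested homologues of genes raised in WT × osd1 seeds, with extra paternal genomes, 466 rose (56.1%) and 26 fell, with a median log2 fold change of 2.3. Of 1063 homologues of genes lowered there, 501 fell (47.1%) and 58 rose, with a median of -1.41. These shares stand beside 12.4% higher and 10.3% lower over all tested genes, and beside 31.2% higher and 25.8% lower among the 3316 tested genes with an Arabidopsis partner, of which 1038 were paired only in lists that the study drew from these seeds. Without Cr replicate 2 these counts of 466 and 501 dropped to 252 and 360, and without Cr × Cg replicate 2 to 307 and 351. Without Cr replicate 1 they were 282 and 412. In the opposite cross, osd1 × WT, 134 of 586 raised homologues rose and 100 fell, and of 345 lowered homologues 111 rose and 68 fell, with medians of 0.08 and 0.65. Some homologues, such as ZOU, LEC2 and YUC10, are labelled both raised and lowered in osd1 × WT, which 1 comparison cannot give. The direction of the osd1 × WT sets is therefore uncertain, and their counts and medians are not a directional result. The source of the double labels was not tested. With single libraries left out, the rises among these sets numbered between 65 and 105 and between 55 and 90. The 26 falls and 58 rises against the direction in WT × osd1 numbered between 11 and 17 and between 21 and 44.

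Rises were ranked by fitted log2 fold change among stable calls with at least 5 CPM in the higher cross and an Arabidopsis partner. The 8 highest were in genes without a count in Cr, where the fitted size depends on the prior count. Their order is therefore not an order of measured ratios. The homologue of AT5G47550, with 2 and 1 counts in Cr and 4485 and 1846 in Cr × Cg, ranked below them. Its ratio of 2190 (95% interval 749 to 10621, counting error only) was above every bound given here. The homologue of AT3G45200 had 749 and 892 counts in Cr × Cg, which is at least 568-fold higher than in Cr. That of AT2G02580, a cytochrome P450 of the CYP71B group, had 1298 and 363 counts (at least 574-fold), and that of AT3G10900, an endo-mannanase of the cell wall, 664 and 949 counts (at least 558-fold). That of AT1G66145, which encodes the signalling peptide CLE18, had 1457 and 192 counts, at least 570-fold more than in Cr. In Cg and Cg × Cr these genes were between 0 and 0.756 CPM, whereas both Cr × Cg libraries were at 8.1 CPM or more. All 4 calls were stable, and the other 4 genes of this kind were the homologues of AT1G21395, AT5G22990, AT3G43990 and AT2G36800 (at least 307-, 230-, 221- and 209-fold). The homologues of AT3G10900, AT1G66145 and AT1G21395 reached the low-count filter through Cr × Cg alone.

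The largest falls by the same rule were in genes that Cr expressed between 8.09 and 897 CPM. The homologue of AT1G18520, a tetraspanin, had 273 and 259 counts in Cr and 2 and 4 in Cr × Cg (-6.34 ± 0.66 on the log2 scale, adjusted p = 0.0011). It was low in Cg as well, with 11 and 12 counts, and had 20 and 31 counts in Cg × Cr. Between Cr × Cg and Cg it was not called (-1.86 ± 0.66, adjusted p = 0.098). RGP3 (AT3G08900), of a family that handles arabinose for cell wall polymers, was at 447 and 897 CPM in Cr and 17.4 and 21.2 CPM in Cr × Cg (-5.12 ± 0.58). SWEET17, a vacuolar fructose carrier, was at 85.5 and 171 CPM in Cr and 3.73 and 4.17 CPM in Cr × Cg (-5.02 ± 0.55). The homologues of the endoglucanase gene AT1G48930 (-5.07 ± 0.47), the raffinose synthase family gene AT1G55740 (-5.02 ± 0.42), AT5G25400 (-5.49 ± 0.62), AT1G59950 (-5.13 ± 0.50) and AT3G23360 (-5.05 ± 0.37) completed the 8 steepest stable falls. SWEET17, AT1G55740, AT1G59950 and AT2G36800, and AT2G19802 and AT4G39800 among the genes named next, were paired with Arabidopsis genes only in lists that the study drew from these seeds, so their names were available because of their response.

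By amount of transcript, the largest gain among stable calls was in the homologue of AT4G12870, of the gamma interferon-responsive lysosomal thiol reductase family. It was at 1435 and 664 CPM in Cr and 14392 and 12313 CPM in Cr × Cg (3.67 ± 0.44, adjusted p = 0.0016). Cg (18390 and 14542 CPM) and Cg × Cr (14455 and 11317 CPM) had levels like those of Cr × Cg, and Cr alone was low. The homologue of AT2G19802 went from 16.8 and 21 CPM in Cr to 1342 and 979 CPM in Cr × Cg (5.94 ± 0.40), and was at 370 and 348 CPM in Cg and 1.2 and 2.5 CPM in Cg × Cr. The other 3 gains were in genes without an Arabidopsis partner here.

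The largest loss in amount among stable calls was in the homologue of AT5G38160, of the lipid-transfer and 2S albumin superfamily, from 1280 and 1041 CPM in Cr to 175 and 68.6 CPM in Cr × Cg (-3.25 ± 0.56). The homologue of AT4G39800 (MIPS1), the enzyme that makes inositol phosphate from glucose phosphate, was at 833 and 1285 CPM in Cr and 89.5 and 83.9 CPM in Cr × Cg (-3.61 ± 0.30, adjusted p = 0.0008). Its levels in Cg, 1569 and 1558 CPM, and in Cg × Cr, 624 and 793 CPM, left the Cr × Cg libraries the lowest. The homologues of the aspartic protease gene AT4G04460 (-2.93 ± 0.38) and of the patellin gene AT1G30690 (-2.54 ± 0.29) followed, together with RGP3.

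Whether the response to a father of the other species differed between the directions of crossing was tested by a difference of responses. The first response was that of the C. rubella mother to a C. grandiflora father (Cr × Cg minus Cr). From it was taken the response of the C. grandiflora mother to a C. rubella father (Cg × Cr minus Cg). An effect of the father species that is alike in both mothers also gives such a difference. Whether the father's effect depended on the mother was therefore not tested. The responses share no library. The difference was called for 5037 genes, 23.7% of those tested, with 2515 (11.9%) more positive and 2522 (11.9%) more negative in the C. rubella mother. Without Cr × Cg replicate 2 the count was 3076, without Cg replicate 2 it was 3174 and without Cr replicate 2 it was 3319. The size on the log2 scale was -3.65 ± 0.60 for KNOLLE (adjusted p = 0.0052) and -2.86 ± 0.32 for HINKEL (adjusted p = 0.0014), whose responses in the C. grandiflora mother were -0.39 and -0.33 and were not called. For MINI3 it was 8.24 ± 0.82 (adjusted p = 0.0011), with a response of -3.32 in the C. grandiflora mother. For IPT6 it was -4.23 ± 0.55, and for ICE1 -3.30 ± 0.46, with both called.

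For several genes the difference of responses was not called. It was -1.20 ± 0.41 for CYCB1;3 (adjusted p = 0.07), -2.33 ± 0.71 for LEC1 (adjusted p = 0.052) and 0.80 ± 0.32 for CKX5 (adjusted p = 0.11). Their responses in the C. grandiflora mother were -1.07, -0.7 and 0.29 and were not called. Whether the effect of the father species on these genes depended on the mother was not tested.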

How the data were processed

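RNA-sequencing counts of 8 seed libraries, 2 for each of 4 crosses, were used. The sample titles gave the cross and the replicate. The authors deposited the read counts per gene for 26521 genes without normalization. Per the methods of the paper, they mapped every library to the genome of C. rubella, discarded reads mapping to several places and counted reads on genes with HTSeq at its default options. The processing notes of the submitters also name Trimmomatic and SAMtools. Mapping C. grandiflora alleles to a C. rubella sequence can lower the counts of diverged genes in Cr × Cg, and reads of near copies were lost. Neither was tested here.

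Counts were tested with edgeR 4.0.16 (limma 3.58.1, R 4.3.3). The filterByExpr function, at a minimum count of 10, left 21214 genes with between 99.97 and 99.99% of the counts, libraries were scaled by TMM (factors between 0.955 and 1.031), and quasi-likelihood models with robust estimation were fitted over the 4 crosses together. Benjamini-Hochberg adjustment ran over all genes tested. The SE is the absolute log2 fold change divided by the square root of F and restates the test. Fitted values of genes without counts in a cross depend on the prior count. For such genes a bound with 3 counts over the group is given, which covers counting error only. Summaries and plots used matplotlib 3.10.9, pandas 2.3.3, SciPy 1.17.1 and NumPy 2.4.6 under Python 3.11.15.

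No genome annotation or sequence was used here. Gene lists by role were therefore made from Arabidopsis identifiers, through the pairs that the supplementary tables of the study give, in place of the planned matching of RefSeq descriptions. Members were limited to genes deregulated in Arabidopsis crosses with osd1. Planned lists with no member in these tables and planned promoter motifs were left out, and 1 family of genes is not reported here. The comparison, the lists and the named genes were chosen with earlier results of these data known. Named were the 8 steepest rises and falls by fitted log2 fold change among stable calls with at least 5 CPM and an Arabidopsis partner. So were up to 4 stable calls and the most abundant member of each list. The 5 largest gains and losses in CPM and the 3 highest and lowest differences of responses were named too. Other genes in the text were named after their values had been seen. The study describes the libraries as biological replicates. The alternatives were DESeq2 1.42.0, its size factors in edgeR, only the crosses compared, no filter or one of 1 CPM in at least 2 libraries, a block for the replicate number, a minimum absolute log2 fold change of 1 for a call, and each library left out.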

Additional observations from a re-analysis of the deposited data

Results flagged for a closer look

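The response to the other species as father differed between a C. rubella and a C. grandiflora mother for 5037 genes by the test of the difference itself. An effect of the father species that is alike in both mothers is also counted here. Among stable calls of that difference, the highest values were in the following 3 genes. The homologue of AT5G47550, a cystatin that inhibits cysteine proteases, had a difference of 17.92 on the log2 scale, with 2 and 1 counts in Cr, 4485 and 1846 in Cr × Cg, 3020 and 3319 in Cg and 24 and 25 in Cg × Cr. It was thus high in every library with a C. grandiflora father and low in every library with a C. rubella father. The homologue of AT1G14755 had a difference of 16.98, with 5 and 7 counts in Cr, 634 and 615 in Cr × Cg and none in Cg × Cr. The homologue of AT5G22990 had a difference of 16.02, with no count in Cr and 276 and 389 in Cr × Cg. Fitted sizes of genes without counts in a cross depend on the prior count and are not bounds.

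The lowest values were in genes with the opposite order. The homologue of AT4G38410, a dehydrin family gene, had a difference of -7.56, with levels of 1.3 and 2.38 CPM in Cr, 0.209 and 0.464 CPM in Cr × Cg, 0.233 and 0.407 CPM in Cg and 8.6 and 13.4 CPM in Cg × Cr. The homologue of AT1G18520, a tetraspanin, had a difference of -7.51, and its fall in Cr × Cg was the steepest among the genes named for their fall. It was at 8.09 and 10.1 CPM in Cr and 0.0597 and 0.169 CPM in Cr × Cg. Its level was 0.366 and 0.444 CPM in Cg and 0.664 and 1.17 CPM in Cg × Cr. The homologue of AT2G06255, a small protein related to the clock protein ELF4, had a difference of -7.31, with 14.9 and 22.4 CPM in Cr and 1.01 and 0.506 CPM in Cr × Cg, and with 2.16 and 0.851 CPM in Cg and 6.54 and 13.6 CPM in Cg × Cr. All 6 differences were called with each of the 8 libraries left out.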

How the results depend on the processing

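The counts of genes called depended mostly on which library was left out. They ranged between 987 and 1831 higher and between 1023 and 1514 lower genes with single libraries left out, and between 3076 and 4067 genes for the difference of responses. Under the other alternatives they lay between 2267 and 3151 higher and between 1698 and 2592 lower genes, within 1.5 times the counts reported, and no gene called under an alternative and in the full fit changed sign. DESeq2 called 5743 genes, among them 98.8% of the 4822. Of the storage and regulator list, 1 gene was lower in the full fit, 4 by DESeq2, 2 without a filter, 2 in a fit of only the crosses compared and 8 with the replicate block, and its 1 higher gene was lost with the filter at 1 CPM. A second pectin gene was lower by DESeq2 and with the replicate block, and 1 seed coat gene (MUM4) was lower by DESeq2 and in the fit of only the crosses compared, where the full fit called none. Log2 fold changes that were not called ranged between -13.87 and 1.91 for CRU3 and between -0.34 and 0.26 for RBCS1B with single libraries left out. They turned positive without Cr replicate 1 for CRU3 (1.91) and RBCS1B (0.26) and without Cr × Cg replicate 2 for RBCS1B (0.05). The causes were not tested.

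Replicate numbers named libraries only. The deviations of same-numbered libraries correlated at 0.333 between Cr and Cr × Cg and between -0.176 and 0.237 for other crosses. With the replicate number as a block, 2396 genes were higher and 2110 lower, and 4675 differed in their responses. The lone library of a cross was assumed to vary like the other crosses where its partner was left out. With 2 libraries per cross and 4 residual degrees of freedom, most storage genes, whose replicates were unlike, did not pass the test in the full fit.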

Other observations

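Calls were spread unevenly over the levels of genes. Of 2668 genes with a mean under 1 CPM, 12.7% rose and 2.81% fell, whereas of 7836 genes between 20 and 100 CPM, 9.69% rose and 13.4% fell. The share of rises was highest, 17.9%, between 1 and 5 CPM. Of 374 tested genes without a count in Cr, 226 were called higher. Of the 234 among them that reached the filter level outside Cr × Cg, 95 were called higher. The others passed the low-count filter only through Cr × Cg libraries, so the filter favoured a rise for them.

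Among genes that the study lists only from these hybrid seeds, whose direction is therefore not independent, the pectin gene QRT2, a polygalacturonase of pollen separation in Arabidopsis, was at 0.0296 and 0 CPM in Cr and 6.53 and 17.7 CPM in Cr × Cg. The expansin EXPA22 had no count in Cr and was at 7.34 and 4.34 CPM in Cr × Cg. The auxin synthesis gene TAA1 was at 97.4 and 78.5 CPM in Cr and 10.6 and 7.63 CPM in Cr × Cg, and the auxin carrier PIN4 at 10.9 and 7.8 CPM and 37.4 and 42.5 CPM. All 4 calls were stable. Of 7 further kinesins in these lists, 5 fell.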
